A study of Rattus norvegicus with 47 samples.

Results

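The genes described here are 10 chemokine and cytokine ligands, Ccl3, Ccl4, Ccl5, Ccl6, Cxcl1, Cxcl2, Il6, Il10, Tnf and Osm, measured as mRNA in the blood of rats over the first day after stroke. They were found by their gene symbol in the annotation of a table of 27596 probe sets with 20935 gene symbols. Each of the 10 symbols was carried by a single probe set, so the rule of taking the brightest probe set of a gene made no choice. The 8 male spontaneously hypertensive rats (SHR), 16 weeks old, were sampled repeatedly at 0, 1, 2, 3, 6 and 24 hours post MCA occlusion, giving 47 arrays, 8 at each time point and 7 at 6 h. The middle cerebral artery (MCA) was closed by a coated thread under isoflurane and reopened, under a further anesthesia, between the 1 h and the 2 h samples. Blood came from the tail vein into heparin up to 6 h, with the 0 h sample taken before anesthesia, and from the heart after anesthetic overdose at 24 h. RNA was prepared from the pelleted blood cells, and no sham-operated rats were among the samples, so that stroke, surgery, anesthesia, repeated bleeding and time of day cannot be told apart, nor can the 24 h time point and the heart as sampling site.

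Chemokines are small secreted proteins that draw leukocytes along a gradient by way of G protein-coupled receptors. The CC chemokines Ccl3, Ccl4, Ccl5 and Ccl6 act mainly on monocytes and lymphocytes through receptors such as Ccr1, and the CXC chemokines Cxcl1 and Cxcl2 draw neutrophils through Cxcr2. Tnf is the classical early cytokine of innate inflammation, Il6 and Osm (oncostatin M) signal through the shared receptor chain Il6st (gp130), and Il10 restrains inflammatory cytokine production. Several of these genes are known targets of the transcription factor NF-kB, and their mRNAs are made by myeloid cells, T cells and NK cells in blood.

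Promoters were taken from RefSeq sequence on the GRCr8 build, as windows of 250 bases before to 50 bases after the annotated start of a gene. The sequence table held a window for 5 of the 10 ligands, which were Tnf, Ccl6, Cxcl1, Cxcl2 and Il6. Of these, 4 are shown. Tnf and Ccl6 were measured above background and rose. Cxcl1 lay just over the background, and its small rise depended on the processing. Il6 was measured within the background, and its signal fell. The windows were searched on both strands for an NF-kB motif (GGG, any 3 bases, then TTCC) and the cyclic AMP response element TGACGTCA, and matches are in capitals.
Tnf promoter, chr20:3626435-3626734, plus strand: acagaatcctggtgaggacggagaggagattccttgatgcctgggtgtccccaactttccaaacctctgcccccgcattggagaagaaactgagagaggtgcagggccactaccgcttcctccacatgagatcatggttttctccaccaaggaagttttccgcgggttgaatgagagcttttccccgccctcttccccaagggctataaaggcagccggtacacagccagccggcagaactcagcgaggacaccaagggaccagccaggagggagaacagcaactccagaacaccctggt
Ccl6 promoter, chr10:68883317-68883616, minus strand: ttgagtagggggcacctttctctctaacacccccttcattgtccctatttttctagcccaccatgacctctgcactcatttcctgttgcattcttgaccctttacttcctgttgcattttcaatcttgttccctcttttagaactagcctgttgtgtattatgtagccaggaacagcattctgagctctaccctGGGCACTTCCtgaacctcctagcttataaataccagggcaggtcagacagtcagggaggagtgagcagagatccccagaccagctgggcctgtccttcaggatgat
Cxcl1 promoter, chr14:17479272-17479571, minus strand: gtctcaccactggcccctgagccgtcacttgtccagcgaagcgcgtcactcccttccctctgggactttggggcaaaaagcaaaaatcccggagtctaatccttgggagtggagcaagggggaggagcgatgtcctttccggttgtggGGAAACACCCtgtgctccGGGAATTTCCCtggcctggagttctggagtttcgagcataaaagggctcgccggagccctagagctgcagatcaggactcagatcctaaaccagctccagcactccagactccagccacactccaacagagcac
Il6 promoter, chr4:5894526-5894825, minus strand: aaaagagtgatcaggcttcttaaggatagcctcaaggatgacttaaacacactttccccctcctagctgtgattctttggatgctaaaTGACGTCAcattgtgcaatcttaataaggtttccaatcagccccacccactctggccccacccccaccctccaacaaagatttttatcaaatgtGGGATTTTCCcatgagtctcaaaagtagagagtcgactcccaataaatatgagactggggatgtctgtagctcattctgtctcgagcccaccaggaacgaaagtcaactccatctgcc
The NF-kB letters were found in 5.37% of 33469 promoter windows of the same length and in 4 of the 5 ligand windows. Ccl6 had a match starting 56 bases before the start, Il6 had 1 at 68 bases, and Cxcl2, whose window is not printed, had matches at 74 and 54 bases. In Cxcl1 the capitals hold 3 matches, at 102, 84 and 83 bases before the start, and those at 84 and 83 overlap on opposite strands. The letters of the cyclic AMP response element were found in 1.83% of all windows and, among the ligands, in Il6 alone, 162 bases before the start. The Tnf window held neither set of letters, which says only that they are not in this stretch.

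Expression is given as the log2 RMA signal of the probe set, where RMA corrects the background of each array, scales the arrays to the same distribution and combines the probes. A difference of 1 is a doubling. Each value is the authors' mean over the arrays of a time point with their deposited SD. Over all probe sets the median SD lay between 0.14 and 0.16, and the median change from 0 h between 0.04 and 0.07. Tests are limma's moderated tests built on the authors' mean and SD of each time point with its number of arrays, and FDR is the p-value adjusted by Benjamini-Hochberg over all 27596 probe sets, with 0.05 as the threshold. They assume that mean and SD are the plain ones over separate samples, although the same rats were bled throughout. In whole blood, fewer cells of a type and less RNA per cell cannot be told apart. Markers of neutrophils, monocytes, T cells, NK cells, B cells, platelets and erythroid cells all lay above the background described next at each of the 6 time points.

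Of the 10 ligands, 7 were expressed above background at all 6 time points. Background was taken as the 95th percentile of 1214 olfactory receptor probe sets, whose genes are not known for expression in blood, and lay between 6.55 at 0 h and 6.71 at 3 h. Ccl6, Ccl3, Ccl5, Tnf, Osm and Ccl4 lay clearly over it, and also over the 99th percentile of the same probe sets. Cxcl1 lay just over it, at the 97.5th percentile of the olfactory receptor probe sets, and dropped out when the 99th percentile was used. Cxcl2, Il6 and Il10 lay within the background, with percentiles of 73.6, 55.6 and 37.1. With 178 vomeronasal receptor probe sets as the background the same 7 ligands lay above it at every time point. Since probes differ in how brightly they bind, a signal within this background says that the mRNA was not seen, and not that it was absent.

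**Figure D1:**
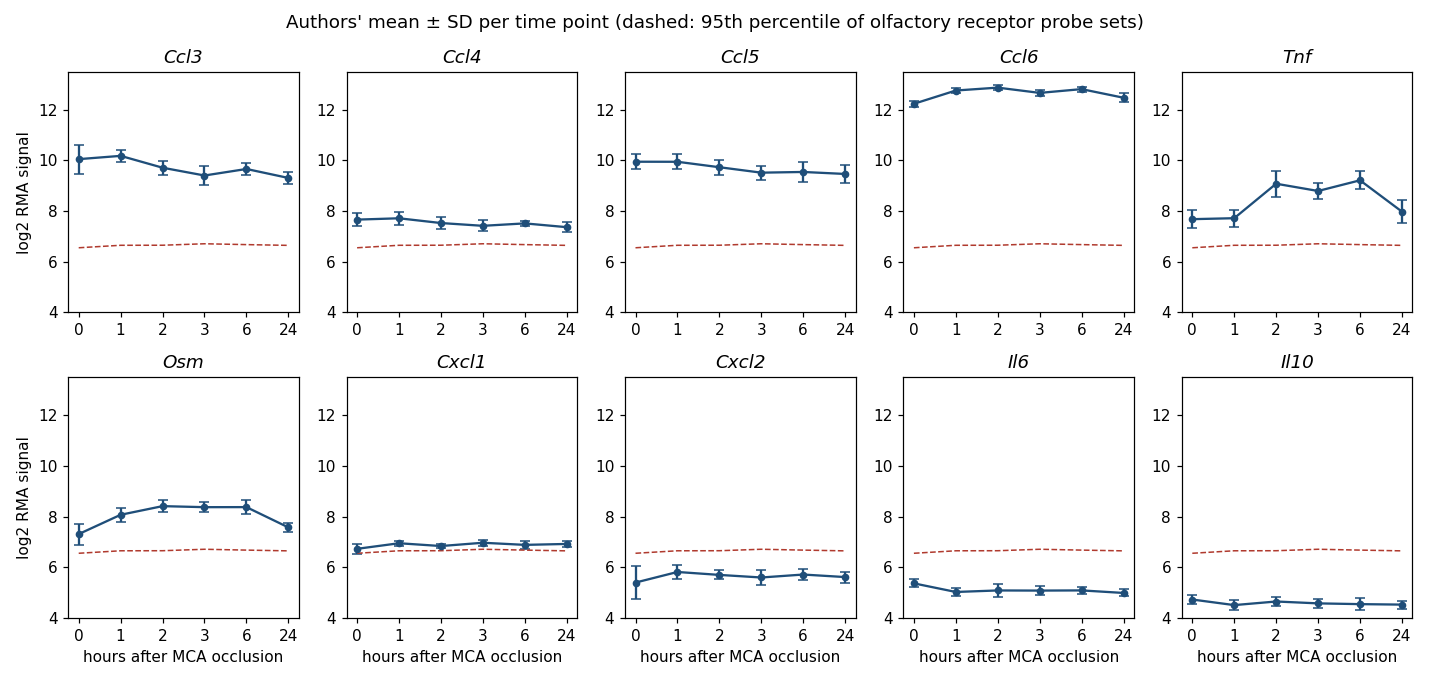
Log2 RMA signal (vertical axis) of the 10 ligands at 0, 1, 2, 3, 6 and 24 hours after MCA occlusion (horizontal axis, time points evenly spaced and not to scale). Points and bars are the authors' mean and SD over 8 arrays, or 7 at 6 h, and the dashed line is the 95th percentile of 1214 olfactory receptor probe sets, between 6.55 and 6.71. Tnf and Osm rise and return, Ccl6 rises from a high level, and Cxcl2, Il6 and Il10 stay under the dashed line.

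The signal of 8 of the 10 ligands changed over the 6 time points by the moderated F-test, all but Cxcl2 and Il10. Among the 8, Il6 lay within the background, so for Il6 a change of expression was not shown. Over all probe sets 55.5% passed the same test, so the share of ligands that changed is read against that background. The changes of Tnf and Osm were the largest among the ligands. A largest change from 0 h of at least 1 on the log2 scale was found in these 2 ligands and in 3.54% of all probe sets, and its median size was 0.45 over the ligands and 0.24 over all probe sets. The largest change was above the highest of a gene's own 6 SDs in 8 ligands and in 62.4% of all probe sets.

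Tnf, the cytokine that acts through Tnfrsf1a and Tnfrsf1b, had the largest rise of the ligands, and the rise came after the 1 h sample. In the rn5 annotation of the table its probe set (10828021) spans 6936229 to 6938847 of chromosome 20, plus strand, and carries the symbol Tnf alone. Its mean signal was 7.68 at 0 h (SD 0.35), 7.72 at 1 h (SD 0.33), 9.08 at 2 h (SD 0.52), 8.80 at 3 h (SD 0.30), 9.22 at 6 h (SD 0.36) and 7.98 at 24 h (SD 0.46). The means at 2, 3 and 6 h were the high ones, and their SD ranges did not overlap those at 0, 1 and 24 h, although the range at 24 h ends just under that at 3 h. The change from 0 h was 0.04 at 1 h, with an interval from -0.34 to 0.41 (FDR 0.888). It was 1.40 at 2 h (SE 0.19, FDR 2.9e-08), 1.11 at 3 h (SE 0.19, FDR 3.64e-06) and 1.53 at 6 h (SE 0.19, FDR 7.05e-09), or 2.90-fold at its highest. The step from 1 to 2 h alone was 1.36 (FDR 1.29e-06), and in that interval the artery was reopened under anesthesia. Between 2 and 3 h (-0.29, FDR 0.488) and between 3 and 6 h (0.42, FDR 0.232) the changes did not pass the threshold. From 6 to 24 h Tnf fell by 1.24 (FDR 2.4e-06), and the remaining change from 0 h was 0.30, with an interval from -0.08 to 0.67 (FDR 0.225). By the size of its largest change Tnf stood at the 98.9th percentile of all probe sets.

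Osm, a cytokine of the Il6 family made by activated leukocytes, rose earlier than Tnf and formed a plateau. Its probe set (10773849) is in the plus direction of chromosome 14, from 85147855 to 85150705. The mean signal was 7.31 at 0 h (SD 0.41), 8.07 at 1 h (SD 0.28), 8.41 at 2 h (SD 0.23), 8.37 at 3 h (SD 0.20), 8.38 at 6 h (SD 0.27) and 7.57 at 24 h (SD 0.18). All means from 1 to 6 h lay above the SD range at 0 h, and the order of 2, 3 and 6 h was within their SDs. The change was already 0.76 at 1 h (SE 0.13, FDR 1.08e-05). It reached 1.10 at 2 h (SE 0.13, FDR 1.46e-09), which is 2.15-fold, and was 1.06 at 3 h and 1.07 at 6 h. From 6 to 24 h Osm fell by 0.80 (FDR 1.02e-05). At 24 h the change from 0 h was 0.26 (FDR 0.116), which is 24.0% of the largest change, against 19.4% in Tnf.

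Ccl6, a rodent CC chemokine of myeloid cells that binds Ccr1, rose by less than Tnf and Osm but with small SDs. The probe set (10745670) is on the minus strand of chromosome 10, from 70430600 to 70436258. The mean signal was 12.24 at 0 h (SD 0.11), 12.76 at 1 h (SD 0.10), 12.88 at 2 h (SD 0.09), 12.67 at 3 h (SD 0.12), 12.82 at 6 h (SD 0.10) and 12.48 at 24 h (SD 0.17). The means from 1 to 6 h lay well over the SD range at 0 h, and the range at 24 h reached into it. Ccl6 had risen by 0.52 at 1 h (SE 0.06, FDR 3.37e-09), and its largest change was 0.64 at 2 h (SE 0.06, FDR 4.45e-12), or 1.56-fold. The fall of 0.21 from 2 to 3 h passed the threshold (FDR 0.0432), but not after quantile normalization of the means (FDR 0.117) or with the variance of these time points alone (FDR 0.0703). At 24 h a change of 0.24 was left (SE 0.06, FDR 0.00255), 37.4% of the largest. Unlike Tnf and Osm, Ccl6 thus still passed the threshold against 0 h at 24 h, though the difference between these genes was not tested.

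Neutrophil markers were higher from 1 to 24 h. Ccl6 likewise passed the threshold at every later time point, and Osm did from 1 to 6 h. Tnf did not pass at 1 h, and neither Tnf nor Osm did at 24 h. All 6 of 6 neutrophil markers were higher than at 0 h at every later time point, where between 17.4% and 27.3% of all probe sets were called higher, with median changes of 0.82, 1.40, 1.33, 1.65 and 0.80 at 1, 2, 3, 6 and 24 h. Their summed signal, as log2, went from 13.60 before occlusion to 15.07 at 6 h and was 14.33 at 24 h, and none of them was under 8.57 at any time point. The 6 monocyte markers did not move together. Cd14, the lipopolysaccharide co-receptor, was 1.84 higher at 3 h, whereas Cx3cr1, the fractalkine receptor, was 1.45 lower on the log2 scale, with a list median of 0.10. The log2 of the summed monocyte marker signal ran from 12.74 at 1 h to 13.35 at 3 h, against 13.20 at 0 h. The part of cell numbers in the changes of Tnf, Osm and Ccl6 was not tested.

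**Figure D2:**
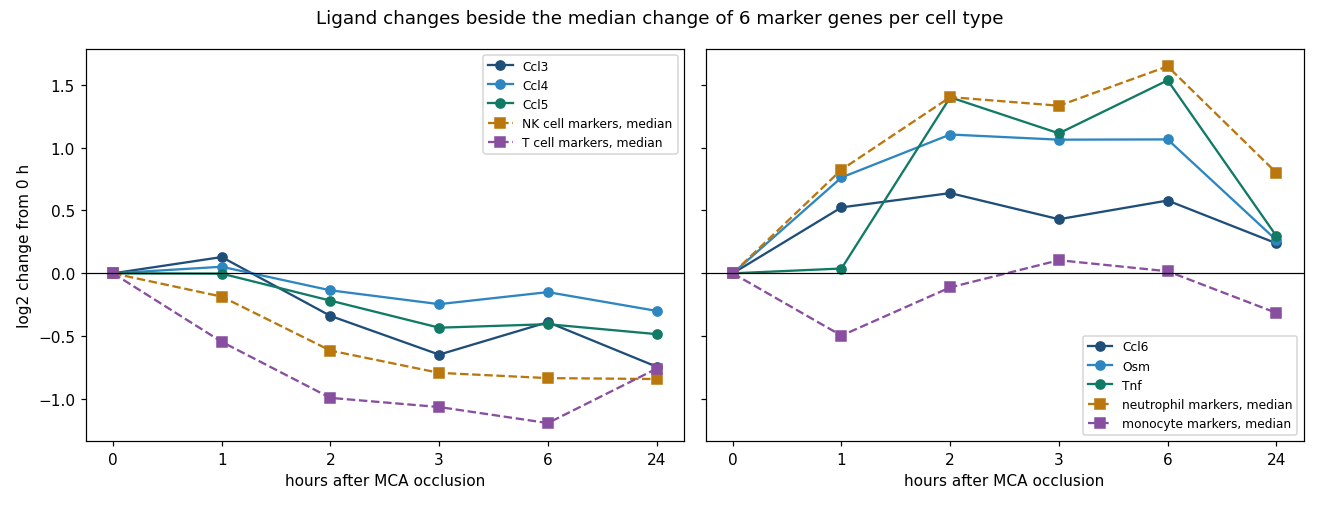
Log2 change from 0 h (vertical axis) by hours after MCA occlusion (horizontal axis, evenly spaced), computed from the authors' means. Solid lines are single ligands and dashed lines are medians over 6 markers of a cell type. On the left, Ccl3, Ccl4 and Ccl5 lie lower from 2 h. NK cell markers reach -0.84 at 24 h and T cell markers reach -1.19 at 6 h. At 1 h the T cell median is already -0.54, where Ccl3, Ccl4 and Ccl5 are at 0.13, 0.05 and -0.0022. On the right, Osm and Ccl6 are raised from 1 h and Tnf from 2 h, beside neutrophil markers that reach 1.65 at 6 h.

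The CC chemokines Ccl3, Ccl4 and Ccl5 are typical products of T cells, NK cells and macrophages. They passed the threshold as lower at 3 h and at 24 h, and Ccl5 also at 6 h. Ccl3 (probe set 10745677, chromosome 10, minus strand, 70501119 to 70502669) had a mean signal of 10.05 at 0 h (SD 0.57), 10.18 at 1 h (SD 0.24), 9.71 at 2 h (SD 0.28), 9.41 at 3 h (SD 0.39), 9.66 at 6 h (SD 0.23) and 9.31 at 24 h (SD 0.23). Its highest SD was that at 0 h, and this range overlapped every later one, while the range at 1 h lay above those at 3, 6 and 24 h. Ccl3 fell by 0.65 at 3 h (SE 0.16, FDR 0.00131) and by 0.74 at 24 h (SE 0.16, FDR 0.000563), or 1.67-fold. At 6 h the change of -0.39 had an FDR of 0.0619, which became 0.0473 when the means of each time point were centred on their median. The step from 1 to 2 h was -0.47 (FDR 0.0655), and the FDR was 0.0145 with the variance of these time points alone.

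Ccl4 lies beside Ccl3 on the opposite strand, from 70516588 to 70518060 (probe set 10736863), and had a smaller fall. Its mean signal was 7.66 at 0 h (SD 0.25), 7.72 at 1 h (SD 0.26), 7.53 at 2 h (SD 0.22), 7.42 at 3 h (SD 0.21), 7.52 at 6 h (SD 0.09) and 7.37 at 24 h (SD 0.21). The SD ranges overlapped throughout. The changes of -0.25 at 3 h (SE 0.10, FDR 0.0486) and -0.30 at 24 h (SE 0.10, FDR 0.0248) passed the threshold narrowly, and neither did after quantile normalization of the means (FDR 0.217 and 0.0833). The call at 3 h was also lost in the ordinary test (FDR 0.0577) and with the variance of the compared time points alone (FDR 0.0654). Without the 24 h samples the change over the time points no longer passed (FDR 0.0783, against 0.0219 with them).

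Ccl5 (probe set 10745631, chromosome 10, minus strand, 70293730 to 70377904) had a mean signal of 9.95 at 0 h (SD 0.29), 9.95 at 1 h (SD 0.29), 9.73 at 2 h (SD 0.30), 9.52 at 3 h (SD 0.27), 9.55 at 6 h (SD 0.40) and 9.47 at 24 h (SD 0.36). The first means were the highest and the last 3 lay close together, with overlapping SD ranges at all time points. Ccl5 fell by 0.43 at 3 h (SE 0.15, FDR 0.0174), 0.40 at 6 h (SE 0.16, FDR 0.034) and 0.48 at 24 h (SE 0.15, FDR 0.0129), or 1.40-fold at the most. The call at 6 h was lost after quantile normalization of the means (FDR 0.0528). The mean of each of these 3 chemokines was lowest at 24 h, but in none was it below the next lowest by more than the SDs.

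Most NK cell markers and all T cell markers were lower over the same hours. The T cell markers were also lower at 1 h, where Ccl3, Ccl4 and Ccl5 did not pass the threshold. Of 6 NK cell markers, 4 were lower at 3 h and 5 at 24 h (19.2% and 13.9% of all probe sets), and the median change went from -0.19 at 1 h to -0.79 at 3 h and -0.84 at 24 h. Gzmb, a cytotoxic protease, did not pass at 3 h (-0.36, FDR 0.0642). Ncr1, a natural cytotoxicity receptor, went the other way, higher by 0.24 at 1 h (FDR 0.0335), 0.22 at 2 h (FDR 0.0446) and 0.34 at 6 h (FDR 0.00347), and did not pass at 3 h (0.02) or 24 h (0.04). The summed NK cell signal, as log2, was 12.78 before occlusion, 12.10 at 3 h and 11.92 on the next day. All 6 of 6 T cell markers were lower at every later time point, where between 13.9% and 19.3% of all probe sets were, with median changes of -0.54, -1.19 and -0.76 at 1, 6 and 24 h, and their summed signal went from 12.47 to 11.26 at 6 h and stood at 11.69 the next day. No marker of these lists was under 7.65. Whether fewer such cells had a part in the fall of Ccl3, Ccl4 and Ccl5 was not tested.

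The neutrophil-attracting chemokines Cxcl1 and Cxcl2, neighbours on the minus strand of chromosome 14, had small changes near the background. Cxcl1 (probe set 10775900, 18653032 to 18654811) had a mean signal of 6.73 at 0 h (SD 0.20), 6.95 at 1 h (SD 0.11), 6.84 at 2 h (SD 0.09), 6.97 at 3 h (SD 0.12), 6.88 at 6 h (SD 0.16) and 6.92 at 24 h (SD 0.12). The 0 h mean was the lowest, and its SD range overlapped every other. The rises of 0.22 at 1 h (SE 0.07, FDR 0.0104), 0.24 at 3 h (SE 0.07, FDR 0.00399) and 0.19 at 24 h (SE 0.07, FDR 0.0291) passed the threshold. After centring of the means the FDR was 0.0516 at 1 h and 0.0994 at 24 h, and the F-test did not pass either (FDR 0.115, against 0.0262). With quantile normalized means the F-test (FDR 0.093) and the change at 24 h (FDR 0.0845) did not pass, and with the variance of the compared time points alone the change at 24 h had an FDR of 0.0733. The olfactory receptor probe sets drifted the same way, with a median change of 0.06 at 1 h and 0.10 at 3 h, and 11.9% and 25.7% of them were called higher at these time points. The 95th percentile of their changes at 3 h was 0.29, above the 0.24 of Cxcl1.

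Cxcl2 (probe set 10775896, 18640312 to 18642357) had a mean signal of 5.40 at 0 h (SD 0.66), 5.81 at 1 h (SD 0.29), 5.70 at 2 h (SD 0.18), 5.60 at 3 h (SD 0.31), 5.71 at 6 h (SD 0.21) and 5.61 at 24 h (SD 0.22). The SD at 0 h was larger than any change. The rise of 0.42 at 1 h (SE 0.17, FDR 0.0436) did not pass in the ordinary test without moderation (FDR 0.0571), after centring (FDR 0.0858) or quantile normalization of the means (FDR 0.121), or with the variance of these time points alone (FDR 0.136). The F-test gave an FDR of 0.285.

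Il6 and Il10 gave signals within the range of the olfactory receptors at every time point. The Il6 probe set (10859799, chromosome 4, plus strand, 3095535 to 3100111) had a mean signal of 5.36 at 0 h (SD 0.16), 5.02 at 1 h (SD 0.15), 5.08 at 2 h (SD 0.27), 5.08 at 3 h (SD 0.17), 5.09 at 6 h (SD 0.15) and 4.98 at 24 h (SD 0.14). The 0 h mean was higher than all others, which did not differ among themselves beyond their SDs. Il6 signal fell at each later time point, by 0.34 at 1 h (SE 0.09, FDR 0.00212), 0.28 at 2 h (FDR 0.00906), 0.29 at 3 h (FDR 0.00696), 0.28 at 6 h (FDR 0.0117) and 0.38 at 24 h (SE 0.09, FDR 0.000918). Of the olfactory receptor probe sets between 0.906% and 1.81% were called lower at a time point, and the 5th percentile of their changes was -0.13 at 1 h. The F-test gave an FDR of 0.00446, whereas the paper lists this probe set as not significant over time. A rise of Il6 mRNA was thus not seen at any time point, on a probe set whose signal could not be told from background.

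The Il10 probe set (10763777, chromosome 13, plus strand, 52824653 to 52829126) had a mean signal of 4.73 at 0 h (SD 0.19), 4.51 at 1 h (SD 0.19), 4.65 at 2 h (SD 0.18), 4.57 at 3 h (SD 0.19), 4.54 at 6 h (SD 0.25) and 4.52 at 24 h (SD 0.15). The SD ranges overlapped at all time points and no comparison passed the threshold (F-test FDR 0.232). At 1 h the change was -0.22, with an interval from -0.41 to -0.03 (FDR 0.0587), and the FDR became 0.0235 with centred means and 0.0178 with quantile normalized means. With the latter the changes of -0.24, -0.27 and -0.26 at 3, 6 and 24 h passed as well (FDR 0.0421, 0.0276 and 0.0354), and with centred means so did that at 24 h (FDR 0.0485).

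Time point by time point, the calls were as follows. At 1 h, 5 ligands passed the threshold, where 37.1% of all probe sets did. Those higher were Osm, Ccl6, Cxcl2 and Cxcl1 (background 21.7%), and Il6 was lower (15.4%). At 2 h, 4 ligands passed (background 40.4%), with Tnf, Osm and Ccl6 higher (21.7%) and Il6 lower (18.6%). The highest number of calls was at 3 h, with 8 ligands (background 46.5%), namely Tnf, Osm, Ccl6 and Cxcl1 higher (27.3%) and Ccl3, Ccl4, Ccl5 and Il6 lower (19.2%). At 6 h, 5 ligands passed (background 41.8%), with Tnf, Osm and Ccl6 higher (22.5%) and Ccl5 and Il6 lower (19.3%). At 24 h, 6 ligands passed (background 31.2%), with Ccl6 and Cxcl1 higher (17.4%) and Ccl3, Ccl4, Ccl5 and Il6 lower (13.9%). With centred means the calls at 1 h were 2 higher and 2 lower, and at 24 h 1 higher and 5 lower, and with quantile normalized means they were 3 and 2, and 1 and 4. These 5 comparisons share the 0 h samples, so an error in the 0 h mean enters all of them. The median change of the ligands was 0.09, 0.02, 0.02, 0.00 and -0.00 at 1, 2, 3, 6 and 24 h, beside 0.05, 0.05, 0.07, 0.05 and 0.04 over all probe sets.

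**Figure D3:**
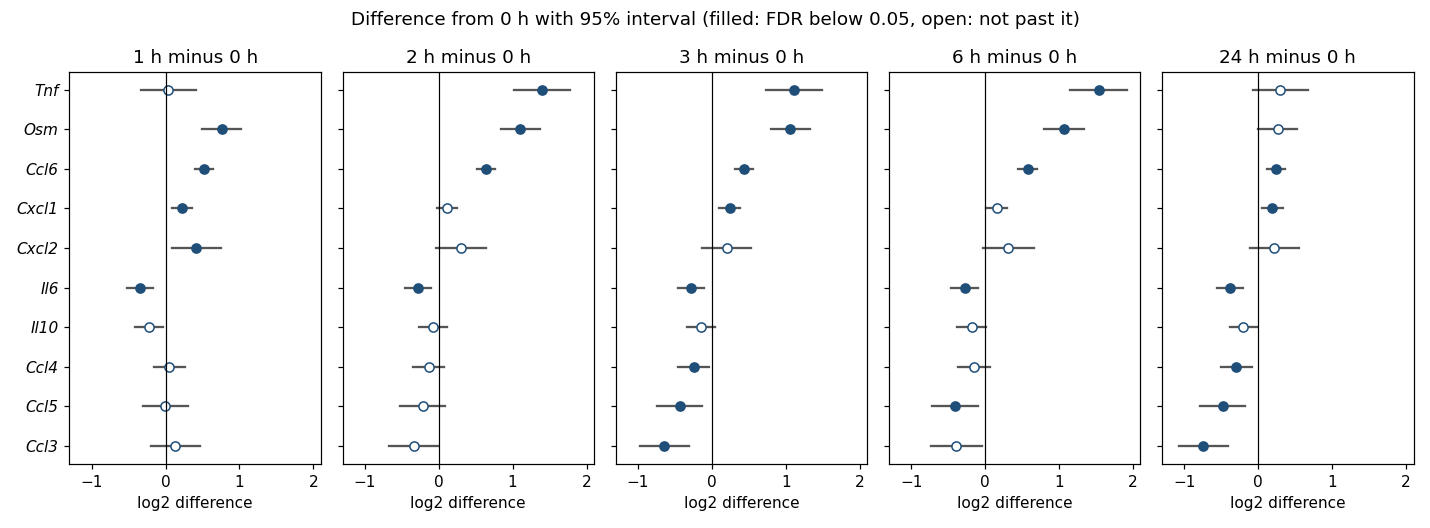
Log2 difference from 0 h (horizontal axis) of each ligand (rows) at 1, 2, 3, 6 and 24 h, with 95% intervals from limma's moderated test. Filled points have an FDR under 0.05 over 27596 probe sets and open points do not. Tnf, Osm and Ccl6 lie furthest right at 2, 3 and 6 h, and Ccl3 lies furthest left at 3 and 24 h.

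Between neighbouring time points fewer ligands moved. From 1 to 2 h Tnf passed, and with the variance of these time points alone Ccl3 did too (background 8.78% in either direction and 4.66% higher). From 2 to 3 h Ccl6 passed, downwards (background 3.53%, and 1.62% lower), a call that depended on the setting as given above. From 3 to 6 h 0 of the 10 ligands passed limma's test, where 4.78% of all probe sets did, and 2 had an unadjusted p under 0.05, Tnf and Ccl6. From 6 to 24 h Tnf, Osm and Ccl6 fell (background 18.9%, and 8.68% lower), and in this interval the sampling site changed from tail vein to heart. With the variance of these time points alone Ccl3 passed too (-0.35, FDR 0.0279), where 16.0% of all probe sets did.

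The genes whose 6 means followed a ligand most closely were taken from 3787 probe sets with a single symbol, a called F-test and a largest change of at least 0.5. Likeness is Pearson's r over 6 time point means, which share arrays and normalization, and is given as a description. Ccl3 and Ccl4 were most like Klri1 and Faslg (r of 0.99 for each pair) and Gzmk (0.98). Ccl5 was most like Gzma and Gzmk (0.99) and Faslg (0.98). Tnf was most like Ethe1, Rgs19 and Lgals3 (0.99 each), and 42 probe sets reached an r of 0.95 with it. Osm was most like Tuba1c, Ssh2 and Tmem2 (1.00 each when rounded), and 166 probe sets reached that r, so its profile was a common one. Ccl6 was most like Snx13 (0.99) and Xpo6 (0.98), with 46 probe sets at or over that r. Il6 was most like Hdac1l (0.99), Slamf9 (0.98) and Stx8 (0.97), and Cxcl1 was most like RGD1562420 (0.96), Ctnna1 and Mir33 (0.93).

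Receptors of these ligands were measured on 15 of 15 probe sets, and 13 changed over the time points by the F-test, which 55.5% of all probe sets passed. At 6 h, 7 were higher and 3 lower (22.5% and 19.3% of all probe sets), and at 24 h, 5 and 3 (17.4% and 13.9%). Ccr1, a receptor of Ccl3, Ccl5 and Ccl6, rose most, by 2.38 at 6 h (SE 0.16, FDR 2.05e-17), from 9.32 (SD 0.35) at 0 h to 11.70 (SD 0.12). Cxcr2, the receptor of Cxcl1 and Cxcl2 and itself among the neutrophil markers, rose by 1.59 at 6 h, from 11.10 (SD 0.34) to 12.70 (SD 0.10). Tnfrsf1a, the main receptor of Tnf, rose by 0.81 at 6 h (FDR 1.36e-11), and Il10rb, a chain of the Il10 receptor, by 0.68 at 3 h (FDR 1.47e-11). The second Tnf receptor, Tnfrsf1b, was lower by 0.54 at 1 h on the log2 scale. Osmr, the specific receptor chain of Osm, lay under the background at every time point and had an F-test FDR of 0.94.

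Target and feedback genes of these cytokines were mostly higher from 1 to 6 h. At 1 h Osm was higher as well, by 0.76, while the change of Tnf was 0.04, with an interval from -0.34 to 0.41. Whether any ligand drove these genes was not tested. Of 11 genes, 10 were measured and all 10 changed by the F-test (55.5% of all probe sets), with 10 higher at 6 h (22.5%) and 1 at 24 h (17.4%). Socs3, a feedback inhibitor of cytokine receptors with Il6st, rose by 1.74 at 3 h (FDR 1.2e-18), from 7.71 (SD 0.16) to 9.45 (SD 0.07), and its change at 24 h was 0.13 (FDR 0.369). Stat3, the transcription factor downstream of Il6st and of the Il10 receptor, rose by 1.24 at 3 h (FDR 6.63e-20). Zfp36, which promotes the decay of Tnf mRNA, rose by 0.64 at 2 h (FDR 1.1e-12). Adam17, the protease that releases Tnf from the cell surface, was lower by 0.39 at 1 h on the log2 scale (FDR 0.000347) and higher by 0.73 at 6 h (FDR 2.45e-09). At 1 h, 8 of the 10 were higher and 1 lower (21.7% and 15.4% of all probe sets). The 10 genes had median changes of 0.31, 0.65, 0.62, 0.64 and 0.05 at 1, 2, 3, 6 and 24 h.

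Other chemokines were measured on 28 of 28 probe sets, of which 10 lay above background at all time points and 16 changed by the F-test, a share near the 55.5% of all probe sets. With centred means 9 passed (50.2% of all probe sets) and with quantile normalized means 7 (48.1%). At 3 h, 10 were higher and 3 lower, where 27.3% and 19.2% of all probe sets were. Ccl2, the main ligand of Ccr2, rose by 1.32 at 3 h (FDR 7.04e-06), from 8.39 (SD 0.65) to 9.71 (SD 0.37), and its change at 24 h was -0.29 (FDR 0.34). Cxcl16, the ligand of Cxcr6, fell by 1.44 at 6 h (FDR 4.04e-12), and Cxcl10, an interferon-induced ligand of Cxcr3, by 1.03 at 6 h (FDR 4.81e-09). Ccl9, a rodent CC chemokine that binds Ccr1 like Ccl6, fell by 0.51 at 24 h (FDR 4.31e-05), the opposite direction to that of Ccl6, and was above background at 2 of the 6 time points.

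Other cytokines were measured on 38 of 38 probe sets, of which 11 lay above background throughout and 22 changed by the F-test, again near the 55.5% of all probe sets. At 3 h, 13 were higher and 6 lower, beside 27.3% and 19.2% over all probe sets. Il1b, which with Tnf is a first cytokine of the innate response, rose by 0.92 at 6 h (FDR 2.25e-09), from 11.23 (SD 0.34) to 12.14 (SD 0.11). Its change at 24 h was 0.72 (FDR 1.26e-06), while that of Tnf had not passed the threshold. Clcf1, of the same family as Il6 and Osm, fell by 0.57 at 3 h (FDR 9.67e-08). Il16, a T cell attractant, fell by 0.24 at 3 h (FDR 3.13e-05), and Il24, of the Il10 family and above background at 1 time point only, fell by 0.91 at 3 h (FDR 1.78e-09).

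**Figure D4:**
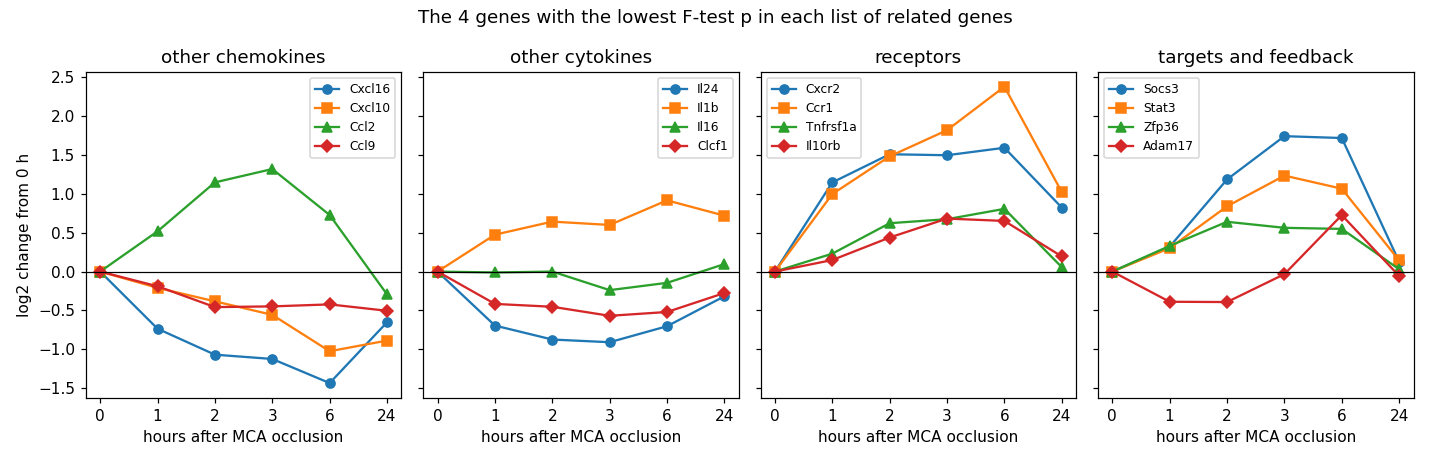
Log2 change from 0 h (vertical axis) by hours after MCA occlusion (horizontal axis, evenly spaced) for the 4 genes with the lowest F-test p in each list of genes related to the ligands, from the authors' means. Ccr1 reaches 2.38 and Cxcr2 1.59 at 6 h, Socs3 and Stat3 peak at 3 h, Ccl2 peaks at 1.32 at 3 h, and Cxcl16 is lowest at 6 h with -1.44.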

How the data were processed

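Whole blood mRNA was measured on Affymetrix RatGene 1.0 ST arrays. The authors deposited log2 RMA values as a mean and an SD per probe set and time point, annotated on rn5; that the SDs are plain SDs over separate rats is not stated in the table. The table also holds the authors' fold changes with p-values and FDRs, which were not used, and 47 columns of single arrays, whose names match no sample label and which were not used. RNA was worked up in randomized batches, which the values used here cannot show.

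Time point groups were taken from the sample labels. The test planned for single arrays was computed from means, SDs and array numbers with limma 3.58.1 (squeezeVar, 1 shared variance per probe set) in R 4.3.3. Comparisons were each later time point against 0 h, neighbouring time points from 1 h, and an F-test over the 6, two-sided and without a rat block. Arrays were simulated for 27596 probe sets, of which 200 were changed. There, 2 h against 0 h called 89 of 100 probe sets changed by 0.5 and 99 of 100 changed by 1. Of the calls 6% were false. In the measured data 40.4% of probe sets were called at 2 h, and the same rats were bled throughout. These rates cannot be carried over to the measured data. Arrays give no counts, so the 7 or 8 arrays per time point limit the precision.

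The ligands, gene lists and tests were chosen with earlier results of these data known. Named from each related list were the 4 genes with the lowest F-test p among those called, and for each ligand that changed the 3 most alike genes, except that 2 genes are not reported here by name; Tnfrsf1b, Osmr and the markers Cd14, Cx3cr1, Ncr1 and Gzmb were named after their values were seen. Alternatives were an ordinary test, an intensity trend with a robust prior, means centred on their median, quantile normalized means, the lowest 25% of probe sets left out, the variance of the compared time points alone, the F-test without 24 h samples, and other background levels. Promoters came from RefSeq (GRCr8).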

Additional observations from a re-analysis of the deposited data

How the results depend on the processing

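Of the 10 ligands, 7 to 8 changed over the 6 time points under every alternative run that kept all ligands, and the calls of Tnf, Osm and Ccl6 against 0 h held under each. Over single ligands and comparisons, 18 calls were lost and 9 gained under some alternative, and these concern Ccl3, Ccl4, Ccl5, Ccl6, Cxcl1, Cxcl2 and Il10. With the variance of the compared time points alone, 2 ligands passed from 1 to 2 h, Tnf and Ccl3, and 0 from 2 to 3 h, which was also 0 after quantile normalization of the means. With that variance 4 passed from 6 to 24 h, Tnf, Osm, Ccl6 and Ccl3. The sign turned in 4 uncalled values near 0: by quantile normalization in Ccl5 at 1 h (0.0204), Osm from 3 to 6 h (-0.0027) and Il10 from 6 to 24 h (0.0043), and by centring in Tnf at 1 h (-0.0105). The cause was not tested. Leaving out the lowest 25% of probe sets left out Il6 and Il10. No paired analysis was possible because the values used are means per time point and carry no rat, and for the same reason no rat was left out in turn. The second probe set of a gene was not run, since each ligand had 1. Values near background limit what Cxcl1, Cxcl2, Il6 and Il10 can show.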
